A study of Homo sapiens with 12 samples.

Results

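Embryonic stem cells carry a set of proteins on their surface by which they are recognised and sorted, and cells that leave the pluripotent state put others there. Messenger RNA of 10 such genes was followed here in H1, an embryonic stem cell line of human origin in wide use, after an shRNA against OCT4. Of the 10, 7 are markers of the stem cells themselves: THY1, CD9, CD24, PODXL, EPCAM, PROM1 and ALPL. The other 3, KIT, CXCR4 and PDGFRA, are receptors used to sort mesendoderm, endoderm or mesoderm. They were chosen by name, and every probe annotated to exactly 1 of them was taken, which gave 19 of the 48803 probes on the array and 10 of its 18852 named genes. Of the 19 probes, 15 passed the filter on detection described below and at least 1 of them stood for each gene. The remaining 4 (CD9 ILMN_1904242, PODXL ILMN_2297511, CXCR4 ILMN_2246410 and PDGFRA ILMN_1681949) were detected on none of the 12 arrays and were not tested.

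The study asked which messenger RNAs depend on OCT4, the transcription factor encoded by POU5F1 that holds these cells in the pluripotent state. The 4 groups of 3 Illumina bead arrays each were H1 cells with the OCT4 shRNA at day 2, H1 cells with the luciferase shRNA at day 2, and the same pair at day 3, all days being counted after transfection with 2 ug of shRNA and 6 ul of Fugene. The luciferase shRNA, against an enzyme that human cells lack, was the negative control, so both arms of each comparison had been transfected, and no untransfected cells were part of the design. The labels name 1 OCT4 shRNA only and do not say whether replicates were separate cultures, so p-values reflect no more than how far these arrays scatter, a scatter that can be technical.

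The surface proteins of these cells are of several kinds. THY1, CD24 and ALPL are held in the membrane by a lipid anchor, CD9 is a tetraspanin, PODXL is a heavily sialylated mucin, EPCAM is an adhesion molecule of epithelia and PROM1 is a cholesterol-binding protein of membrane protrusions. KIT and PDGFRA are receptor tyrosine kinases, and CXCR4 is the chemokine receptor used with KIT to isolate definitive endoderm from differentiating human stem cells.

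Between 13343 and 14969 probes were detected on each array, and median raw intensities lay between 69.6 and 71.8. Values below are normalised log2 intensities, so a difference of 1 is a doubling, and they are compared between groups for the same probe, never between probes. Replicates of a group correlated at 0.975 to 0.992 over the 15407 probes tested. Replicate 3 stood outermost of its group on the second principal component (17.6% of the variance) in 4 of 4 groups. Counts of called markers among the 10 genes at each day are also given below without it. Those of the lists of other genes were not recomputed. POU5F1 itself, the targeted gene, read 10.73, 11.01 and 10.34 with the OCT4 shRNA at day 2, against 13.14, 12.92 and 12.69 with the luciferase shRNA. At day 3 it read 9.95, 10.52 and 10.29 with the OCT4 shRNA, against 13.09, 13.25 and 13.29. The difference was -2.23 at day 2 (adjusted p = 8.2e-06) and -2.96 at day 3 (adjusted p = 1.47e-07), which left 21.4% and 12.9% of the control signal. POU5F1 has near-identical pseudogenes, and whether its probe tells them apart was not tested.

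The knockdown lowered some stem cell markers and left others without a detected difference, while CXCR4 and KIT, among the sorting markers, rose. At day 2, 2 of the 7 stem cell markers were called lower (THY1 and CD24), 0 were called higher and 5 were not called, at a Benjamini-Hochberg adjusted p under 0.05 in limma, where 7.60% of all tested probes were called (2.57% lower and 5.03% higher). At day 3, 3 of the 7 were lower (THY1, CD24 and PODXL), 0 higher and 4 not called, where 27.6% of all probes were called (14.4% lower and 13.2% higher). Of the 3 sorting markers 1 was called higher at day 2 (CXCR4) and 2 at day 3 (CXCR4 and KIT), and 0 were lower at either day. Taking the brightest tested probe of each gene, the median difference of the stem cell markers was -0.33 at day 2 and -0.55 at day 3, and that of the sorting markers 0.57 and 1.27, where all tested probes had medians of -0.04 and -0.08. Without replicate 3 of every group, a setting chosen after the data had been seen, 1 stem cell marker in place of 2 was called lower at day 2 by its brightest probe, and the other counts were the same. In that setting 851 of the 15407 tested probes were called at day 2 (271 lower and 580 higher) in place of 1171. At day 3, 3576 were called (1752 lower and 1824 higher) in place of 4255. The brightest probe that was lost is that of CD24 (adjusted p = 0.161), while CD24 was still called lower on its other probe, ILMN_1805519, at -1.17 (adjusted p = 0.0135). In RNA from whole cultures, fewer cells expressing a gene and less of its RNA per cell cannot be told apart.

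**Figure D1:**
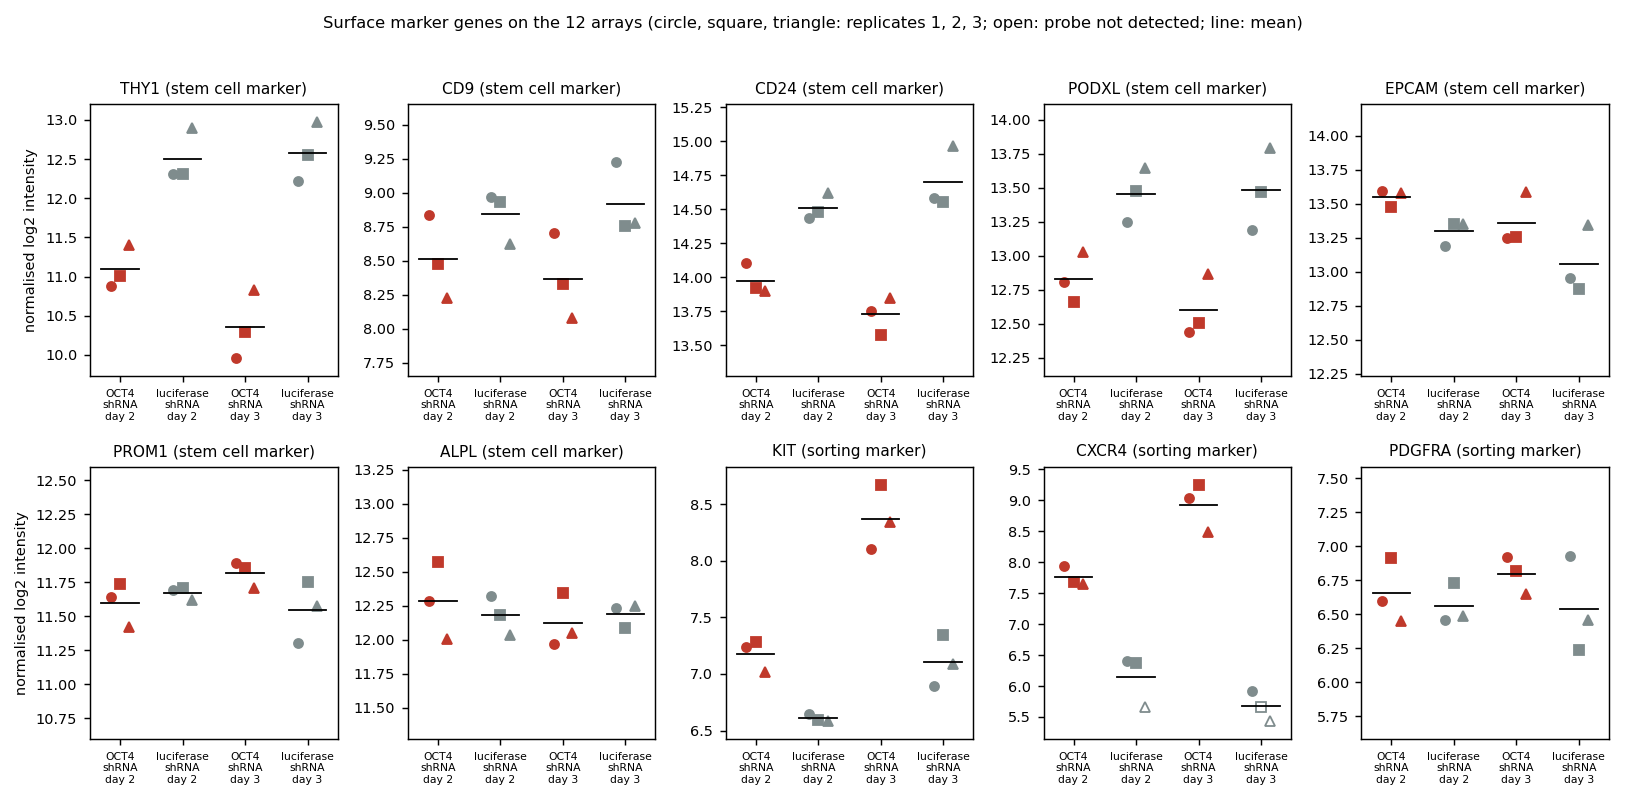
Normalised log2 intensity (vertical axis) of the brightest tested probe of each of the 10 genes on the 12 arrays, with OCT4 shRNA in red left of luciferase shRNA in grey at day 2 and then at day 3. Marks are single arrays, open where the probe was not detected, lines are group means, and each panel has its own scale: THY1 is 2.22 lower with the OCT4 shRNA at day 3 on this log2 scale, and CXCR4 is 3.25 higher over controls of which 2 of 3 are open marks.

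THY1, a small immunoglobulin-like surface protein (GRCh38.p14 chr11:119415476-119424985), had the largest fall of the 7 stem cell markers at both days. It read 10.882, 11.005 and 11.403 with the OCT4 shRNA at day 2, against 12.32, 12.31 and 12.90 with the luciferase shRNA. The groups did not overlap, which held for 3546 of the 15407 tested probes at that day. The THY1 difference was -1.41 (SE 0.26, 95% interval -1.96 to -0.86, adjusted p = 0.00345), a 2.66-fold lower level. At day 3 it read 9.95, 10.30 and 10.83 with the OCT4 shRNA, against 12.22, 12.55 and 12.98 with the luciferase shRNA. Again every OCT4 shRNA array lay below every control array, as the groups were apart for 6426 of the 15407 tested probes at that day. The THY1 difference averaged -2.22 (SE 0.26, 95% interval -2.77 to -1.67, adjusted p = 2.53e-05), or 4.66-fold. Within each group replicate 3 was the highest of the 3 arrays. The order of the group means was OCT4 shRNA at day 3, OCT4 shRNA at day 2, luciferase shRNA at day 2 and luciferase shRNA at day 3. The last pair differed by 0.07 (adjusted p = 0.958), less than the spread of its replicates.

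CD24, a short mucin-like protein (chr6:106969831-106976855), fell on both of its probes at both days. The probe ILMN_1805519 read 9.84, 10.09 and 10.19 with the OCT4 shRNA at day 2, against 11.29, 10.97 and 11.22 with the luciferase shRNA, a difference of -1.12 (SE 0.19, adjusted p = 0.0025). At day 3 it read 9.14, 9.80 and 9.92 with the OCT4 shRNA, against 11.22, 11.37 and 11.47, a difference of -1.73 (SE 0.19, adjusted p = 2.02e-05), or 3.32-fold lower. The groups were apart at both days, as were those of 3546 of the 15407 tested probes at day 2 and 6426 at day 3. The brighter probe, ILMN_2060413, read 14.10, 13.92 and 13.90 with the OCT4 shRNA at day 2, against 14.43, 14.48 and 14.62 with the luciferase shRNA, and the groups did not overlap. That difference of -0.54 (SE 0.15, adjusted p = 0.0403) was lost in 9 of the alternative settings, among them leaving out any 1 of the 6 day 2 arrays (adjusted p = 0.059 to 0.139). At day 3 the same probe read 13.76, 13.58 and 13.85 with the OCT4 shRNA, against 14.58, 14.55 and 14.97, a difference of -0.97 (adjusted p = 0.00025). Both probes therefore placed the knockdown below the control, by different amounts. CD24 has pseudogene copies, and whether either probe tells them apart was not tested.

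PODXL, the podocalyxin that carries keratan sulphate antigens of stem cells (chr7:131500271-131556628), was lower at day 3 on both tested probes. ILMN_2413158 read 12.44, 12.51 and 12.87 with the OCT4 shRNA at day 3, against 13.19, 13.47 and 13.79 with the luciferase shRNA, a difference of -0.88 (SE 0.18, adjusted p = 0.00298). ILMN_1711311 read 9.43, 9.26 and 9.66 with the OCT4 shRNA, against 10.33, 10.21 and 10.56, a difference of -0.91 (SE 0.17, adjusted p = 0.00119). Neither probe's groups overlapped, which held for 6426 of the 15407 tested probes at that day. At day 2 the groups were also apart on both probes, as they were for 3546 of the 15407 tested probes, but neither passed the threshold. ILMN_2413158 read 12.81, 12.66 and 13.02 with the OCT4 shRNA at day 2, against 13.25, 13.47 and 13.65 with the luciferase shRNA (difference -0.63, 95% interval -1.02 to -0.23, adjusted p = 0.0577). ILMN_1711311 read 9.99, 9.67 and 9.76, against 10.07, 10.52 and 10.49 (difference -0.55, 95% interval -0.92 to -0.19, adjusted p = 0.0644). These day 2 values lay near the threshold, which the first probe passed under 8 of the alternative settings and the second under 6.

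CD9, a membrane organiser of the tetraspanin family (chr12:6199946-6238266), did not pass the threshold. It read 8.70, 8.33 and 8.08 with the OCT4 shRNA at day 3, against 9.22, 8.76 and 8.78 with the luciferase shRNA. All 3 OCT4 shRNA arrays lay below all 3 control arrays, as the groups were apart for 6426 of the 15407 tested probes at that day. The difference was -0.55 (SE 0.21, 95% interval -0.99 to -0.11, adjusted p = 0.063). The replicate numbers were taken to pair the day 3 arrays from correlations in these data, as the labels do not say what the numbers stand for. With the replicate number as a block CD9 passed (adjusted p = 0.00263). With that block 6123 of all probes were called in place of 4255, and 3423 in place of 2219 were lower. CD9 also passed without OCT4 shRNA replicate 1 of day 3, at -0.72 (adjusted p = 0.0328). At day 2 the groups overlapped, with 8.84, 8.48 and 8.23 against 8.97, 8.93 and 8.62 (difference -0.33, 95% interval -0.77 to 0.12, adjusted p = 0.442).

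EPCAM, PROM1 and ALPL were not called at either day. Their 95% intervals are given for each probe alone, reflect only the scatter of these arrays and are no firm bound on a change. EPCAM (chr2:47369311-47387020), the adhesion molecule by which epithelial cells are captured, read 13.59, 13.48 and 13.58 on ILMN_2160210 with the OCT4 shRNA at day 2, against 13.19, 13.35 and 13.35 with the luciferase shRNA. The OCT4 shRNA arrays were all above the control arrays, as the groups were apart for 3546 of the 15407 tested probes at that day. EPCAM differed by 0.25 (95% interval -0.08 to 0.58, adjusted p = 0.427). At day 3 it read 13.25, 13.25 and 13.58 with the OCT4 shRNA, against 12.96, 12.87 and 13.35, which overlapped, a difference of 0.30 (95% interval -0.03 to 0.63, adjusted p = 0.168). EPCAM passed at day 3 in the authors' processed values (0.35, adjusted p = 0.0382) and without luciferase shRNA replicate 3 (0.45, adjusted p = 0.0498). Its second probe, ILMN_2160209, was detected on 9 of 12 arrays and had wider intervals. It gave 0.49 at day 2 (95% interval -0.01 to 0.98, adjusted p = 0.265) and 0.18 at day 3 (95% interval -0.32 to 0.67, adjusted p = 0.616).

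PROM1 (chr4:15968228-16084023), known as a marker of many stem cell types, read 11.89, 11.86 and 11.71 with the OCT4 shRNA at day 3, against 11.31, 11.75 and 11.58 with the luciferase shRNA. The groups overlapped, and the difference was 0.27 (95% interval -0.04 to 0.59, adjusted p = 0.186). At day 2 it was -0.07 (95% interval -0.39 to 0.24, adjusted p = 0.856). ALPL (chr1:21508984-21578410), the alkaline phosphatase whose activity stains stem cell colonies, read 11.96, 12.34 and 12.05 with the OCT4 shRNA at day 3, against 12.23, 12.08 and 12.25 with the luciferase shRNA. These overlapped as well, with a difference of -0.07 (95% interval -0.42 to 0.28, adjusted p = 0.798). At day 2 the ALPL difference was 0.11 (95% interval -0.25 to 0.46, adjusted p = 0.807). The day 3 intervals of PROM1 and ALPL do not reach the fall of THY1, CD24 or PODXL at that day, while their missing the threshold does not show that they were equal in the groups.

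**Figure D2:**
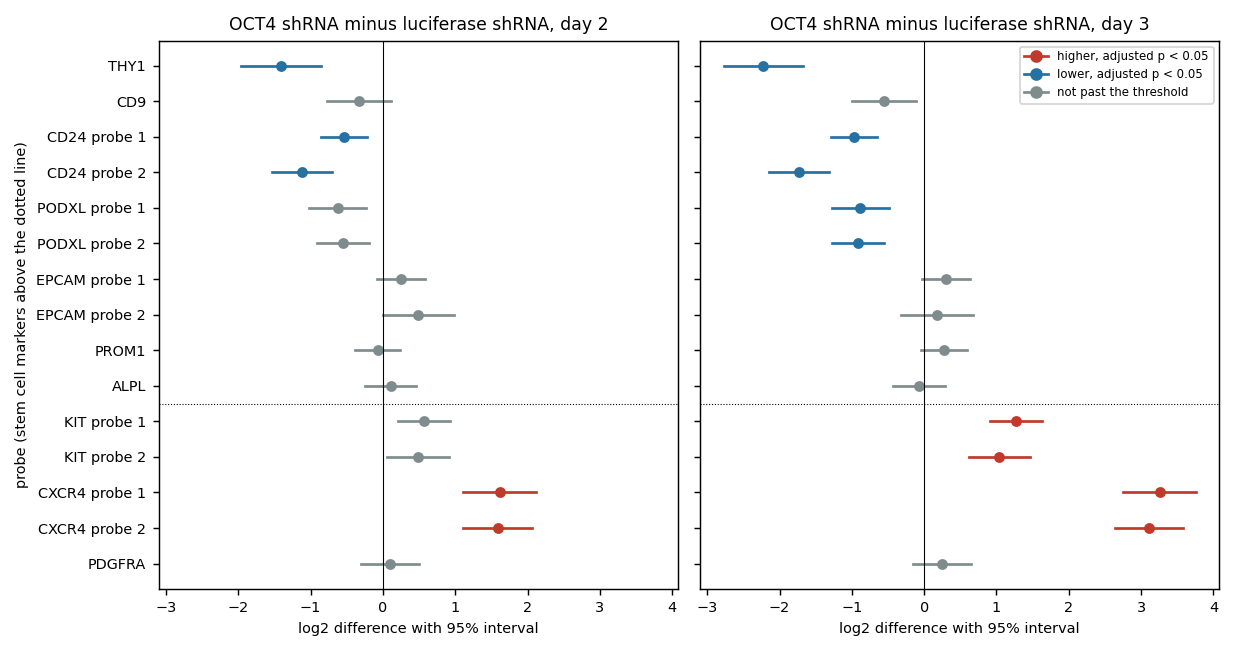
Log2 difference, OCT4 shRNA minus luciferase shRNA, with its 95% interval (horizontal axis) for the 15 tested probes at day 2 (left) and day 3 (right), stem cell markers above the dotted line and sorting markers below it. THY1, CD24 and PODXL lie left of 0 and KIT and CXCR4 right of 0 at day 3, whereas the intervals of EPCAM, PROM1, ALPL and PDGFRA span 0 at both days.

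CXCR4, the receptor of the chemokine CXCL12 (chr2:136114349-136118149), rose most of the 10 genes. Its probe ILMN_1801584 read 7.95, 7.68 and 7.65 with the OCT4 shRNA at day 2, against 6.41, 6.36 and 5.67 with the luciferase shRNA. It was detected on all 3 OCT4 shRNA arrays and on 2 of the 3 control arrays, and the difference was 1.61 (SE 0.23, adjusted p = 0.00065), or 3.06-fold. At day 3 it read 9.04, 9.25 and 8.49 with the OCT4 shRNA, against 5.92, 5.66 and 5.43, with detection on 1 of the 3 control arrays. The difference of the measured values was 3.25 (SE 0.23, 95% interval 2.75 to 3.76, adjusted p = 2.84e-07). The mean of these controls, 5.67, lies below the lowest signal of any detected probe, 5.69, so their level is not resolved. With the undetected arrays raised to the lowest detected signal of their own array, the difference is 2.99, or 7.93-fold, and the day 2 difference is 1.55. The second probe, ILMN_2320888, was not detected on any of the 6 control arrays, so its fold is a lower bound, set against the lowest signal of detected probes on those arrays. It read 7.25, 6.41 and 7.26 with the OCT4 shRNA at day 2, against 5.21, 5.55 and 5.40, at least 2.11-fold higher (adjusted p = 0.000473). At day 3 it read 8.21, 8.26 and 7.74, against 4.97, 4.86 and 5.06, at least 4.40-fold higher (adjusted p = 2.76e-07).

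KIT, the receptor of stem cell factor (chr4:54657957-54740715), rose at day 3 on both of its probes. ILMN_1790160 read 8.10, 8.67 and 8.34 with the OCT4 shRNA at day 3, against 6.89, 7.34 and 7.08 with the luciferase shRNA, a difference of 1.27 (SE 0.17, 95% interval 0.91 to 1.62, adjusted p = 7.91e-05), or 2.41-fold. ILMN_2229379 read 7.81, 8.32 and 8.06, against 6.97, 7.07 and 7.03, a difference of 1.04 (SE 0.20, adjusted p = 0.00146), or 2.05-fold. No OCT4 shRNA array of day 3 fell among the controls on either probe, as the groups were apart for 6426 of the 15407 tested probes. At day 2 ILMN_1790160 read 7.24, 7.28 and 7.01 with the OCT4 shRNA, against 6.64, 6.59 and 6.58 with the luciferase shRNA. These groups were apart, as were those of 3546 of the 15407 tested probes. The difference of 0.57 did not pass (95% interval 0.21 to 0.93, adjusted p = 0.0538) except under 5 of the alternative settings. ILMN_2229379 gave 0.49 at day 2, with overlapping groups (adjusted p = 0.182).

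PDGFRA, a receptor of platelet-derived growth factors that marks mesoderm (chr4:54229293-54298245), was not called. It read 6.92, 6.82 and 6.65 with the OCT4 shRNA at day 3, against 6.93, 6.23 and 6.46 with the luciferase shRNA. The groups overlapped, and the difference was 0.25 (95% interval -0.15 to 0.65, adjusted p = 0.353). At day 2 it read 6.60, 6.91 and 6.45, against 6.46, 6.73 and 6.48, a difference of 0.09 (95% interval -0.31 to 0.50, adjusted p = 0.859). The day 3 interval of PDGFRA ends below the day 3 intervals of KIT ILMN_1790160 and both CXCR4 probes. It overlaps that of the other KIT probe, ILMN_2229379 (0.62 to 1.46). PDGFRA also lies near the detection limit, as luciferase shRNA replicate 2 of day 3 read 6.23 where the lowest detected signal of that array was 6.12.

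Starting regions of the genes were read from RefSeq (GRCh38.p14), which gave 20 windows of 300 bases (250 before a start and 50 after it) for 7 of the 10 genes. Of the called members CXCR4, KIT and CD24 have such windows, and the 250 bases before the start are shown, 5′ to 3′ on the strand of the gene, because these called genes are the ones whose letters could be searched for the sites OCT4 is known to bind. Capitals mark the GC box, GGGCGG on either strand, the binding letters of general SP-family factors, and neighbouring boxes may overlap. The windows are chr2:136118150-136118399 (minus strand) for the most upstream of the CXCR4 starts and chr4:54657707-54657956 (plus strand) for KIT. For the most upstream of the CD24 starts the window is chr6:106975628-106975877 (minus strand).
CXCR4: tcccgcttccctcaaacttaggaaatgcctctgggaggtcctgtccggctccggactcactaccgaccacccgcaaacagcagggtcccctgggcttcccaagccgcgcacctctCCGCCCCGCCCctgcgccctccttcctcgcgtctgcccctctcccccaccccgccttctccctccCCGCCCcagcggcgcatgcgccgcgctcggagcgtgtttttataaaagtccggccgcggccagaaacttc
KIT: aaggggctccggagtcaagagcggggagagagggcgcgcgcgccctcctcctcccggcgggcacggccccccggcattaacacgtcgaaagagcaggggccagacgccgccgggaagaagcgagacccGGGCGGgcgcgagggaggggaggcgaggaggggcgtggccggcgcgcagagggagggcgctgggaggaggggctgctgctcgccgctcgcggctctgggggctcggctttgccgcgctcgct
CD24: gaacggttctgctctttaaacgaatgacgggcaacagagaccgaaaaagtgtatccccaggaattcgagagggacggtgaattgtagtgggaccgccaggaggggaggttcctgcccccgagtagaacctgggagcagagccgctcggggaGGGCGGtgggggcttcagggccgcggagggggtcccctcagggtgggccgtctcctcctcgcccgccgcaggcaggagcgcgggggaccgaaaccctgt

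The octamer bound by OCT4 (ATGCAAAT) occurred on either strand in 0 of the 20 windows, against 1.77% of 35116 RefSeq promoters of the same length. The composite of a SOX and an octamer site and the T-box letters bound by EOMES (AGGTGTGA) were likewise in 0 windows, against 0.0057% and 0.98% of all promoters. The SOX letters ACAATNG were in 1 window, of CD9, against 6.99%. The GC box, searched after the other motifs had been seen, was in 11 of the 20 windows, against 45% of all promoters, with 3 matches in the CXCR4 sequence above and 1 each in those of KIT and CD24. A further CXCR4 window, not shown, held 2 matches. A missing match says only that these letters are not in this window, and a match is not a site.

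KIT and CXCR4 climbed further between the days with the OCT4 shRNA, and no surface marker was called between the days in the controls. For KIT the difference between these 2 changes was itself not called on either probe (0.69, adjusted p = 0.199, and 0.55, adjusted p = 0.485). Among the OCT4 shRNA arrays, day 3 minus day 2, KIT and CXCR4 were called higher and 0 of the 10 genes lower, where 5.13% of all probes were called (3.51% higher and 1.62% lower). KIT ILMN_1790160 was 1.19 higher at day 3 (SE 0.17, adjusted p = 0.000638) and ILMN_2229379 1.12 higher (SE 0.20, adjusted p = 0.00399). CXCR4 ILMN_1801584 was 1.17 higher (SE 0.23, adjusted p = 0.00942) and ILMN_2320888 1.10 higher (SE 0.22, adjusted p = 0.0101). The CXCR4 calls were lost without OCT4 shRNA replicate 2 of day 3 (adjusted p = 0.0512 and 0.052), and that of ILMN_2320888 also without replicate 1 (adjusted p = 0.0505). Among the luciferase shRNA arrays, day 3 minus day 2, 0 of the 10 genes were called, where 0.208% of all probes were (0.110% higher and 0.0974% lower). Both KIT probes were nevertheless higher at day 3 than at day 2 in these controls without overlap, as were the groups of 2423 of the 15407 tested probes in either direction, by 0.50 (adjusted p = 0.289) and 0.57 (adjusted p = 0.304), which did not pass. The replicate numbers paired the arrays of these 2 comparisons of days, and with the replicate block 1991 probes in place of 791 were called with the OCT4 shRNA and 517 in place of 32 in the controls.

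THY1 was 0.74 lower on the log2 scale at day 3 than at day 2 with the OCT4 shRNA (-0.74, adjusted p = 0.129), and the arrays of the 2 days did not overlap, which held for 3398 of the 15407 tested probes in that comparison. With the replicate block this THY1 difference passed (adjusted p = 0.00127), and in the luciferase shRNA arrays that of KIT ILMN_2229379 did (adjusted p = 0.0402).

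The effect of the knockdown at day 3 was set against that at day 2 in the same fit, a test in which 2.01% of all probes were called (1.57% higher and 0.441% lower). CXCR4 alone of the 10 genes was called, on both probes: its knockdown effect was 1.64 larger at day 3 on ILMN_1801584 (SE 0.33, adjusted p = 0.0183) and ILMN_2320888 was called as well (1.52, SE 0.31, adjusted p = 0.0207). ILMN_2320888 was detected on 0 of the 6 control arrays, so its 1.52 is not a measured size, and it includes a difference of -0.43 between undetected values of the 2 control days. On ILMN_1801584 the control days differed by -0.47, with 1 of 3 arrays detected at day 3 and 2 of 3 at day 2. With undetected arrays raised to the lowest detected signal, the differences of effects are 1.44 for the first probe and 1.06 for the second, values given with no test. The call was lost in 4 of the alternative settings for the first probe (adjusted p = 0.0574 to 0.0609) and in 7 for the second (adjusted p = 0.0516 to 0.0663), each with a difference over 1.4. For KIT ILMN_1790160 the effects differed by 0.69 (95% interval 0.19 to 1.20, adjusted p = 0.199) and for THY1 by -0.81 (95% interval -1.59 to -0.03, adjusted p = 0.4). With the replicate block THY1 was called too (adjusted p = 0.012), although the day 2 arrays were not taken as paired, where 893 of all probes were called in place of 310.

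The ligands and relatives of the receptors were read from a list of 26 ligands, relatives and partners of the 10 genes, of which 24 were on the array and 17 were tested. At day 2, 3 of the 17 were higher and 1 lower, where 5.03% of all probes were higher and 2.57% lower. At day 3, 7 were higher and 1 lower, where 13.2% and 14.4% of all probes were, so the count of lower genes is no more than that share. The medians were 0.11 at both days. CXCL12, the ligand of CXCR4, fell while its receptor rose. It averaged 7.01 with the OCT4 shRNA at day 2, against 7.99 with the luciferase shRNA (difference -0.98, adjusted p = 0.00813), and 6.91 against 8.97 at day 3 (difference -2.06, adjusted p = 5.91e-06). The other 2 CXCL12 probes gave -1.94 (adjusted p = 7.98e-05) and -1.69 (adjusted p = 1.48e-05) at day 3. ACKR3, the second receptor of CXCL12, which takes up the ligand, rose by 1.38 at day 2 (adjusted p = 0.00379) and by 3.90 at day 3 (adjusted p = 1.26e-07).

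KITLG, which encodes the KIT ligand, was higher at day 3 by 0.71 (adjusted p = 0.00285) on one probe, while its other probe gave 0.63 (adjusted p = 0.0604). Beside PDGFRA, whose own level was not called, its relative PDGFRB rose by 1.51 at day 2 (adjusted p = 0.00128) and 1.90 at day 3 (adjusted p = 5.65e-05). Of the platelet-derived growth factors, PDGFC rose by 1.00 at day 2 (adjusted p = 0.0012) and 1.64 at day 3 (adjusted p = 4.36e-06). PDGFB gave 1.45 at day 2 (adjusted p = 0.0769; its other probe passed, at 1.37 with adjusted p = 0.0122) and rose by 2.26 at day 3 (adjusted p = 0.00237). PDGFA and PDGFD were not called at either day.

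**Figure D3:**
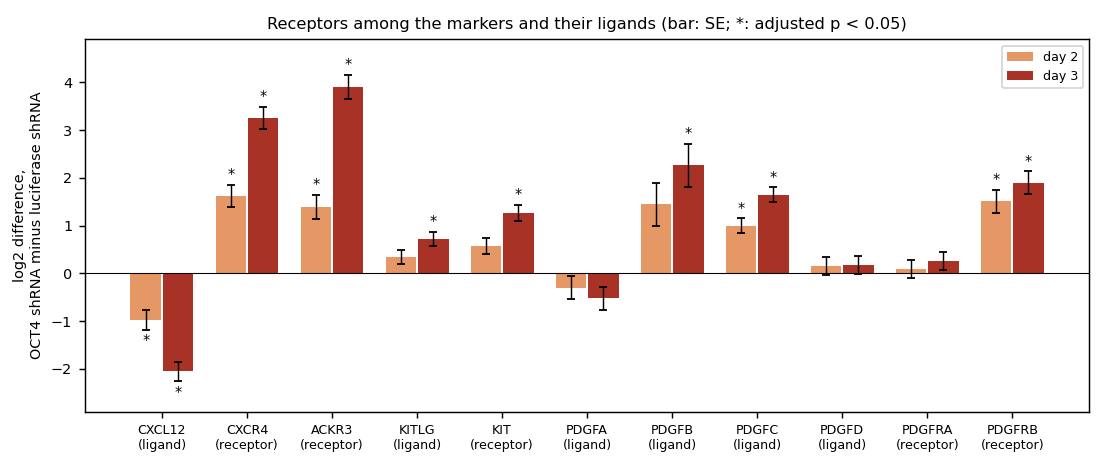
Log2 difference, OCT4 shRNA minus luciferase shRNA (vertical axis), of CXCR4, KIT, PDGFRA, their relatives and their ligands at day 2 (light) and day 3 (dark), with bars for the SE and a star for an adjusted p under 0.05. CXCL12 lies below 0 (-2.06 at day 3) beside its receptors CXCR4 (3.25, with 2 of 3 control arrays undetected) and ACKR3 (3.90) above it, and PDGFRA (0.25) stays near 0 beside PDGFRB (1.90).

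Other surface proteins placed the 10 genes among their kind. Of 16 further surface proteins used to mark mesendoderm, mesoderm or endoderm, 12 were tested, and 9 were higher and 1 lower at each day (of all probes 5.03% were higher and 2.57% lower at day 2, and 13.2% and 14.4% at day 3), with medians of 1.42 at day 2 and 2.25 at day 3 (1.29 and 2.06 with genes undetected in a group set at their bound). FLRT3, an adhesion protein with leucine-rich repeats, rose by 2.24 at day 2 (adjusted p = 2.9e-06) and 4.27 at day 3 (adjusted p = 1.62e-09), and TNFRSF19, a receptor of the tumour necrosis factor family, by 3.10 (adjusted p = 3.18e-08) and 4.24 (adjusted p = 4.13e-10). The integrin subunits ITGAV and ITGA5 rose by 2.76 (adjusted p = 3.97e-07) and 2.74 (adjusted p = 1.54e-08) at day 3. KDR, a receptor of vascular endothelial growth factor used to sort mesoderm, fell at day 3, by -1.52 (adjusted p = 0.000159). It was detected on 1 of the 3 OCT4 shRNA arrays of that day. With the others raised to the lowest detected signal, the difference is -1.34. At day 2 KDR was not detected on the OCT4 shRNA arrays and was at least 1.38-fold lower (adjusted p = 0.0284).

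Of 18 other surface proteins that mark pluripotent cells, 17 were tested. At day 2, 3 were higher and 0 lower, where 5.03% and 2.57% of all probes were. At day 3, 7 were higher and 2 lower, where 13.2% and 14.4% of all probes were, so that the lower count is near that share. The medians were 0.20 and 0.11. ADGRG2, an adhesion receptor coupled to G proteins, rose by 0.97 at day 2 (adjusted p = 0.00502) and 2.43 at day 3 (adjusted p = 5.42e-07). The adhesion molecules L1CAM (1.43, adjusted p = 0.00172, detected on 1 of 3 control arrays, with its other probe at -0.20, adjusted p = 0.347) and ALCAM (1.22, adjusted p = 0.00312) and the glycoprotein CD99 (1.20, adjusted p = 0.00313) were higher at day 3. SEMA6A, a membrane-bound semaphorin, and CD200, an immunoglobulin-like glycoprotein, were lower at day 3, by -0.63 (adjusted p = 0.0162) and -0.48 (adjusted p = 0.012), CD200 on 1 of its 2 probes.

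Several classical antigens of these cells are sugars, which no array reads, so the enzymes that make them were listed. Of 18 enzymes in the synthesis of stem cell glycan antigens, 12 of the 17 on the array were tested. At day 2, 1 was higher and 0 lower (5.03% and 2.57% of all probes), and at day 3, 4 were higher and 2 lower (13.2% and 14.4% of all probes), with medians of 0.14 and 0.24 (0.18 at day 3 with ST3GAL1 at its bound). UGCG, which makes glucosylceramide, the first step to the glycolipid antigens, rose by 0.75 at day 2 (adjusted p = 0.0131) and 1.51 at day 3 (adjusted p = 1.66e-05). The galactosyltransferases B4GALT1 (0.99, adjusted p = 0.00169) and A4GALT (0.91, adjusted p = 0.0111) were higher at day 3. ST3GAL1, a sialyltransferase not detected on the control arrays of that day, was called higher on its measured values (0.79, adjusted p = 0.00695). Its bound is at least 1.23-fold, a value given with no test. At day 2 ST3GAL1 was detected on 3 of 3 control arrays and was not called (0.19, adjusted p = 0.679). B4GALT6, which makes lactosylceramide, and GCNT2, which branches the sugar chains, were lower at day 3, by -0.82 (adjusted p = 0.0304) and -0.69 (adjusted p = 0.027). B4GALT6 was detected on 2 of the 3 OCT4 shRNA arrays of that day. The second GCNT2 probe, not part of the counts, was lower at day 2 (-0.59, adjusted p = 0.0365) and at day 3 (-1.13, adjusted p = 0.000142).

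**Figure D4:**
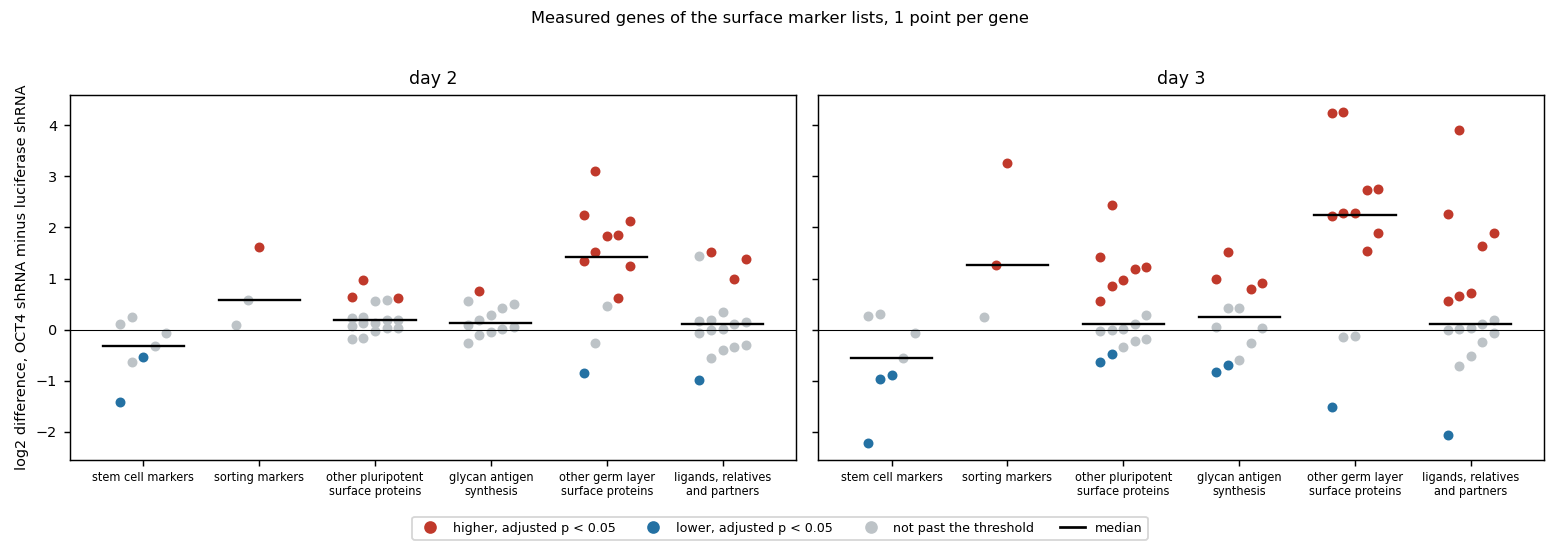
Log2 difference, OCT4 shRNA minus luciferase shRNA (vertical axis), of each tested gene of the 7 stem cell markers, the 3 sorting markers and 4 lists of related genes at day 2 (left) and day 3 (right), coloured by the test, with lines at the medians. At day 3 the median of the stem cell markers is -0.55 and that of the 12 other germ layer surface proteins 2.25.

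Transcription factors and markers of other cell types were read beside the surface genes, against the same shares of all probes (5.03% higher and 2.57% lower at day 2, 13.2% and 14.4% at day 3). Of 7 tested markers of pluripotent cells, POU5F1 included, 4 were lower at day 2 and 6 at day 3, among them NANOG (-1.94, adjusted p = 4.23e-06), SOX2 (-1.77, adjusted p = 0.000192) and DNMT3B (-1.50, adjusted p = 4.24e-06) at day 3. Of 7 tested markers of mesendoderm and endoderm 7 were higher at both days, with SOX17 at 5.38 (adjusted p = 1.31e-08), CER1 at 4.05 (adjusted p = 2.06e-07), LHX1 at 3.83 (adjusted p = 1.51e-08) and EOMES at 3.59 (adjusted p = 8.45e-06) at day 3. SOX17 and LHX1 were detected on 1 of the 3 control arrays of that day, and with the others raised to the lowest detected signal they give 4.64 and 3.44. THY1 and PDGFRA are also expressed by fibroblasts, and 5 of 9 fibroblast and stromal markers were tested, of which 4 were higher at day 2 and 5 at day 3. Their summed level over the 9 genes, on the linear scale, was 8289 to 14201 with the OCT4 shRNA against 3809 to 5719 with the luciferase shRNA at day 2, and 13511 to 21990 against 3157 to 5198 at day 3. COL1A1 was higher by 2.59 (adjusted p = 2.72e-05), COL1A2 by 2.18 (adjusted p = 0.000158) and S100A4 by 1.73 (adjusted p = 6.42e-05) at day 3, whereas DCN, POSTN and FAP were detected on none of the 12 arrays and COL3A1 on 1. Their part in the results for the 10 genes was not tested.

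KIT and CXCR4 are also markers of blood cells, and of 6 blood markers PTPRC, CD34, SPI1, LYZ and CD48 were detected on none of the 12 arrays, while RUNX1, not detected on the control arrays, was at least 1.74-fold higher at day 2 (adjusted p = 8.83e-05) and at least 2.37-fold at day 3 (adjusted p = 1.36e-06). The summed level of the 6 was 223 to 282 with the OCT4 shRNA against 178 to 191 with the luciferase shRNA at day 2, and 289 to 306 against 171 to 204 at day 3. Of 4 tested endothelial markers 1 was higher at day 2 and 2 at day 3, TEK (0.74, adjusted p = 0.0154) and VWF (2.07, adjusted p = 0.000198), with CDH5 detected on no array and a sum of 961 to 1119 against 440 to 544 at day 3. Of 3 tested neural markers TUBB3 (0.67, adjusted p = 0.0267) was higher at day 3, and MAP2 was called as well (adjusted p = 0.0103) but was detected on 1 of the 3 OCT4 shRNA arrays and 0 of the 3 control arrays of that day, so no fold is given for it. PAX6 and SOX1 were detected on no array, and the sum of the list was 4766 to 6609 against 2970 to 4281. Of 4 tested trophoblast markers HAND1 (at least 11.4-fold, adjusted p = 3.61e-09), KRT7 (at least 4.10-fold, adjusted p = 6.17e-05) and GATA3 (at least 1.79-fold, adjusted p = 0.000743) were higher at day 3 over controls in which none was detected, with GATA2 and CGA detected on no array and a sum of 975 to 1530 against 214 to 254. The part of such cells in the results for the 10 genes was not tested.

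For each called member, the 3 genes with the most similar profile over the 12 arrays were found among 10496 other genes, by the root mean square difference of log2 values after each profile was centred on its own mean. For THY1, whose own values had an SD of 0.99, they were MRAP2 at 0.23, TENT5B at 0.28 and PRODH at 0.28. For CD24, with an own SD of 0.41, they were PCNX2 and COBL at 0.11 and NMNAT2 at 0.12. For PODXL, with an own SD of 0.43, they were ENO2 at 0.10, RBPMS at 0.11 and PLAAT1 at 0.12. For KIT, with an own SD of 0.67, they were RFTN2 at 0.19, WDR86 at 0.20 and C1orf21 at 0.21. For CXCR4 they were CDKN2A and EPHA4 at 0.25 and SLCO2A1 at 0.33, against an own SD of 1.32. EPHA4, an ephrin receptor, is itself a surface protein.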

How the data were processed

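Messenger RNA was measured on 12 Illumina bead arrays, and the sample titles gave each array's group and replicate number. The deposited table holds 1 raw intensity on a linear scale for each of 48803 probes and array, with no normalisation that the file headers record, and a detection p-value for each, in steps of 1 in 759 per the values. A second deposited table holds log2 values processed by the authors, equal to log2 intensities less 1 constant for each array and 1 baseline for each probe (remainder SD 1.71e-07, column medians -0.0146 to 0.0136). The samples behind that baseline are unknown, and these values served as an alternative only. No source used here names the scanner.

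Background correction (neqc, negative controls inferred from the detection p-values, offset 16), quantile normalisation and log2 used limma 3.58.1 under R 4.3.3. A probe was tested where its detection p was below 0.01 on 3 or more arrays, which held for 15407. GEO's annotation of the array gave 28098 probes a single gene, 13 probes more than 1 and 20692 probes no gene, and 28059 of the first matched RefSeq by identifier, with 0 symbols changed.

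One limma fit of 4 group means, by probe, gave all contrasts, two-sided, with Benjamini-Hochberg adjustment over all kept probes and a threshold of 0.05 (8 residual degrees of freedom, 5.19 added by moderation). The fit was tested on simulated data. Where a probe was undetected on some arrays of a group, differences were also computed, after the values had been seen, with those arrays raised to the lowest detected signal of the same array. An adjusted p-value printed beside a lower bound is that of the measured values, and the bounds themselves were not tested. Deviations of same-numbered arrays from their group means correlated at 0.48, 0.36 and 0.72 between the day 3 groups, 0.19, 0.19 and 0.63 between the controls and 0.18, 0.56 and 0.69 between the OCT4 shRNA groups, all over 0.1, so these numbers were taken to pair the arrays, although the labels do not say what the numbers stand for. Between the day 2 groups the values were 0.0026, 0.41 and 0.67, and because of replicate 1 those arrays were not taken as paired. Pairing in the other comparisons would imply pairing at day 2 too, so this rule is not consistent. Replicate 3 gave the highest value in each comparison. A shift shared by the replicate 3 arrays cannot be told apart from pairing. Alternatives changed the background correction, scaling, filter, probe choice, block and arrays included.

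The 10 genes and all lists were chosen with earlier results of these data known, so their counts are descriptions. Every member probe is accounted for, up to 4 called genes of each list and direction, by size at day 3, are named, and so are the 3 genes with the profile most like each called member. KITLG, PDGFA and PDGFD were named beyond this rule as ligands of the receptors.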

Additional observations from a re-analysis of the deposited data

Results flagged for a closer look

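The knockdown effect differed between the days, by the test of the difference itself in limma, for 1 of the 10 surface genes. For CXCR4 the difference, day 3 minus day 2, was 1.64 on ILMN_1801584 (adjusted p = 0.0183) and 1.52 on ILMN_2320888 (adjusted p = 0.0207), or 1.44 and 1.06 with undetected arrays raised to the lowest detected signal (no test).

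Among the named genes of the lists, the effect was larger at day 3 for the surface proteins ACKR3 by 2.52 (adjusted p = 0.00171), FLRT3 by 2.02 (adjusted p = 0.000537), ADGRG2 by 1.46 (adjusted p = 0.00939), ITGA5 by 1.40 (adjusted p = 0.00175) and TNFRSF19 by 1.14 (adjusted p = 0.0064). It was also larger for SOX17 by 3.48 (adjusted p = 0.000257), HAND1 by 3.23 (adjusted p = 3.54e-05) and VWF by 2.09 (adjusted p = 0.021), and for NANOG the fall deepened, by -1.31 (adjusted p = 0.0174). CXCR4 ILMN_2320888 and HAND1 were undetected on the control arrays of both days and SOX17 on those of day 2, and CXCR4 ILMN_1801584 was detected on 3 of the 6 control arrays, so their sizes depend on the signal at the detection limit. No single-value outlier test was run in the groups of 3 arrays.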

How the results depend on the processing

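The 5 results of each of the 15 tested probes were recomputed under 22 alternative settings, 1610 values in all. Of these, 1557 stayed on their side of the threshold, 25 lost the call, 28 gained it and 0 reversed, and 29 that were uncalled in both changed sign. The calls at day 3 of THY1, CD24, PODXL, KIT and CXCR4 held in every setting run, as did those at day 2 of THY1, CXCR4 and CD24 ILMN_1805519. That of CD24 ILMN_2060413 at day 2 gave -0.44 (adjusted p = 0.161) without replicate 3 of every group and 0.0737 as adjusted p with the day 2 arrays alone. Between the days of the OCT4 shRNA, CXCR4 ILMN_2320888 missed the threshold with these arrays alone (adjusted p = 0.0581), and without replicate 3 of every group KIT ILMN_2229379 missed it (adjusted p = 0.0559) and THY1 passed (adjusted p = 0.0348).

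With the replicate block, KIT passed at day 2 on both probes (adjusted p = 0.0129 and 0.027), as did PODXL (adjusted p = 0.00293 and 0.0244), and the effects on THY1 differed between days (adjusted p = 0.012). The day 2 arrays were not taken as paired, because of replicate 1 only. Counts of called probes with the block were 2313 in place of 1171 at day 2, 6123 in place of 4255 at day 3 (lower calls 3423 in place of 2219), 893 and not 310 for the change of effect with time, 1991 in place of 791 between the OCT4 shRNA groups and 517 in place of 32 between the controls. It changed no other call at the members beyond those given here and above.

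In the control comparison 21 probes were called with normexp, 21 without background correction, 19 in the authors' values, 13 without the detection filter and 17 with the 2 groups alone. The OCT4 shRNA groups alone gave 433, and the authors' values split that comparison's calls into 635 higher and 155 lower, against 541 and 250 as reported. Leaving out 1 array at a time gave 751 to 1213 probes at day 2, 3186 to 4412 at day 3, 202 to 323 for the change of effect with time, 476 to 792 between the OCT4 shRNA groups and 7 to 50 between the controls (6 without replicate 3 of every group). The causes were not tested. Median scaling put the median of all probes at -0.11 at day 3. With 3 arrays a group, precision is set by their number, and the CXCR4 controls lie at the detection limit.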
